A study of Mus musculus with 2 samples.

Results

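Lysosomal cathepsins are the proteases that break down proteins in the acidic compartments of a cell, and 10 of their genes are described here: Ctsa, Ctsb, Ctsc, Ctsd, Ctsf, Ctsh, Ctsk, Ctsl, Ctss and Ctsz. They were taken by gene symbol from tables that list 23444 symbols, and all 10 were found. The RNA came from cultured bone marrow derived macrophages of FVB mice, and the design compared macrophages with and without a working RON receptor kinase. The first group, RON TK-/- (RON deficient), was 1 library, and the second group, WT (RON proficient), was also 1 library. Both labels state the same treatment, recombinant interleukin-4 at 10 ng/mL over 72 hours, so there is no untreated group. The number of animals or cultures behind a library was not stated in what was used here. With 1 library per group no difference could be tested, no p-value is given, and "higher" and "lower" compare these 2 libraries, not the genotypes. RON TK-/- and WT below stand for the libraries so labelled.

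The libraries held about 61900000 estimated reads for RON TK-/- and about 54200000 for WT. The targeted gene Mst1r, which encodes RON, was listed at 0 in both, so it checked neither label. All 8 macrophage markers found were detected in a library, and Lyz2, the lysozyme of macrophages, had 4651 FPKM in the library labelled RON TK-/-, against 3317 FPKM in the library labelled WT. FPKM are fragments per kilobase of transcript, scaled to library depth, and a gene was taken as detected from 1 FPKM in either library. Activation genes went against the shared treatment label. Arg1 and Chil3, which interleukin-4 induces, had 5041 and 4604 FPKM in the library labelled RON TK-/-, while in the library labelled WT Arg1 had 1.005 FPKM and Chil3 was listed at 0. Nos2 and Tnf, genes of inflammatory activation, had 3.63 and 0.525 FPKM in the library labelled RON TK-/-, against 1100 and 1262 FPKM in the library labelled WT. Every cathepsin value below comes from libraries that stood apart in this way, and genotype, activation state and library cannot be told apart. Whether samples or labels were exchanged was not tested, and an exchange would change which group each higher or lower value belongs to.

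Cathepsins are made as inactive precursors, carried to endosomes and lysosomes largely by mannose 6-phosphate receptors, and activated there as the propeptide is removed at low pH. In macrophages they digest engulfed material, process antigens for MHC class II, and can be secreted to act on the extracellular matrix. They fall into classes by the residue that cuts the peptide bond. Cathepsins B, C, F, H, K, L, S and Z are cysteine proteases of the papain family, cathepsin D is an aspartic protease, and cathepsin A is a serine carboxypeptidase. Cystatins are the natural inhibitors of the cysteine class.

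The coding stretch around the active site is shown for all 10 members. It was located by an amino acid pattern chosen for the known class of the gene, so it does not test the class. Each is 30 bases of the mouse reference transcript in GENCODE M21 (GRCm38), written 5′ to 3′, with the codon of the catalytic cysteine, aspartate or serine in capitals. They are reference sequences, not reads of the FVB libraries.
Ctsl: cagggccagtgcgggtctTGTtgggcgttt
Ctsk: cagggccagtgtggttccTGTtgggctttc
Ctss: cagggttcttgtggtgccTGCtgggctttc
Ctsh: cagggggcctgtggcagcTGCtggactttc
Ctsf: cagggcatgtgtggctccTGCtgggccttt
Ctsb: cagggctcctgcggctctTGTtgggcattt
Ctsz: ccacagtactgtggttccTGCtgggcccac
Ctsc: caagaatcttgtggaagcTGCtactcattt
Ctsd: gtcgtctttGATactggctcctctaacctg
Ctsa: ttcctgacaggagagAGCtatgctggcatc
Among the 8 cysteine genes the stretch is identical at 9 of 30 positions. Part of this identity, and of that between pairs, was fixed in advance by the pattern that all 8 had to match. Pairs share between 14 and 25 of the 30 bases, the fewest for Ctsc and Ctsl and the most for Ctsl with either Ctsk or Ctsb.

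Taken as 1 group, the cathepsins had a higher total in the library labelled RON TK-/-, by an amount that came mostly from Ctsl, although the log2 fold of the total was -0.21 after a scaling that sets the median ratio of detected genes to 0. The 10 genes summed to 13294 FPKM in the library labelled RON TK-/-, against 9699 FPKM in the library labelled WT, or 2.98% of all FPKM in RON TK-/- and 2.27% in WT. Without Ctsl the sums were 10251 FPKM in the library labelled RON TK-/-, against 9274 FPKM in the library labelled WT, a ratio of 1.11. Bulk RNA cannot tell fewer cells of a type from less RNA per cell. The order of the levels also differed. In the library labelled RON TK-/- it ran Ctsd, Ctsl, Ctsb, Ctss, Ctsz, Ctsa, Ctsc, Ctsk, Ctsh and Ctsf from high to low. In the library labelled WT it ran Ctsd, Ctsb, Ctsz, Ctss, Ctsl, Ctsa, Ctsc, Ctsh, Ctsk and Ctsf. With 1 library each there is no spread to say which neighbours in these orders differ.

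**Figure D1:**
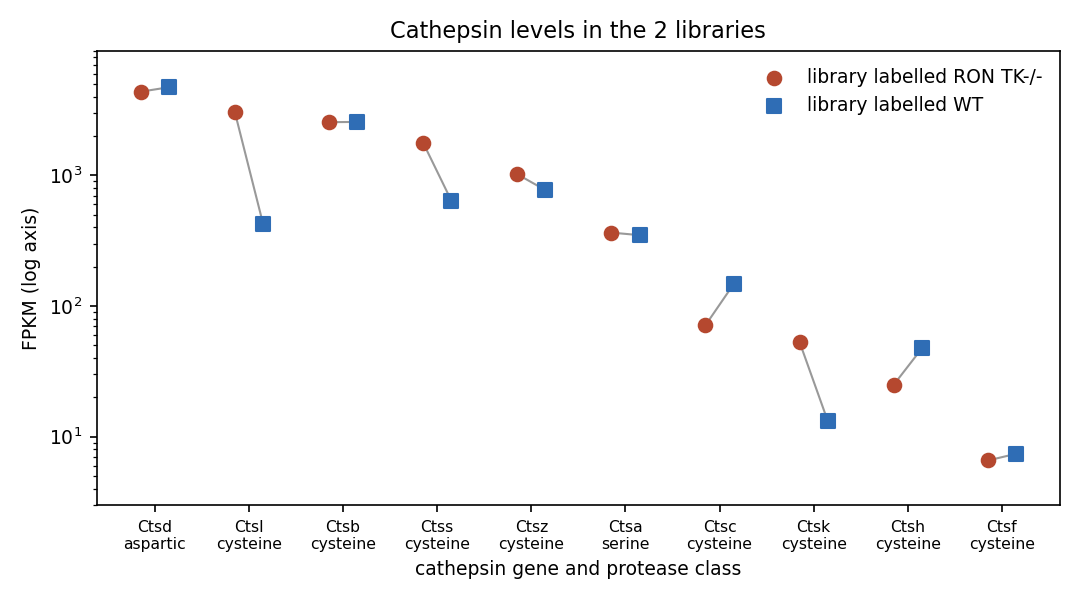
Level of each cathepsin gene in FPKM on a log axis, with its protease class under the gene name. Circles are the library labelled RON TK-/- and squares the library labelled WT, 1 value each, joined by a line. Ctsl, Ctss and Ctsk have the circle well above the square, Ctsc and Ctsh have it below, and the other 5 lie close together.

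The protease classes did not differ alike. The 8 cysteine cathepsins summed to 8555 FPKM in the library labelled RON TK-/-, against 4618 FPKM in the library labelled WT, a ratio of 1.85, and a log2 fold of 0.89 that was 0.23 under the scaling that sets the median of detected genes to 0. The aspartic Ctsd had 4374 FPKM in RON TK-/- and 4732 FPKM in WT, a ratio of 0.924 with a log2 fold of -0.78 under the scaling, and the serine Ctsa had 364.8 FPKM in RON TK-/- and 348.7 FPKM in WT, a ratio of 1.05 that was below 1 under the same scaling, where its log2 fold was -0.60. Cysteine cathepsins therefore made up 64.4% of the cathepsin FPKM in the library labelled RON TK-/-, against 47.6% in the library labelled WT. Within a library the cysteine sum was 1.96 times Ctsd in the library labelled RON TK-/- and 0.976 times Ctsd in the library labelled WT, and such a quotient does not depend on how the libraries are scaled to each other. Most of the class difference in FPKM lay in Ctsl and Ctss. Ctsk added little, with 53.1 FPKM in RON TK-/- and 13.2 FPKM in WT. Ctsl, Ctss and Ctsk were picked here for their high ratios. These 3 summed to 4876 FPKM in the library labelled RON TK-/- against 1078 FPKM in the library labelled WT, while the other 5 cysteine genes summed to 3679 FPKM in the library labelled RON TK-/-, against 3539 FPKM in the library labelled WT.

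**Figure D2:**
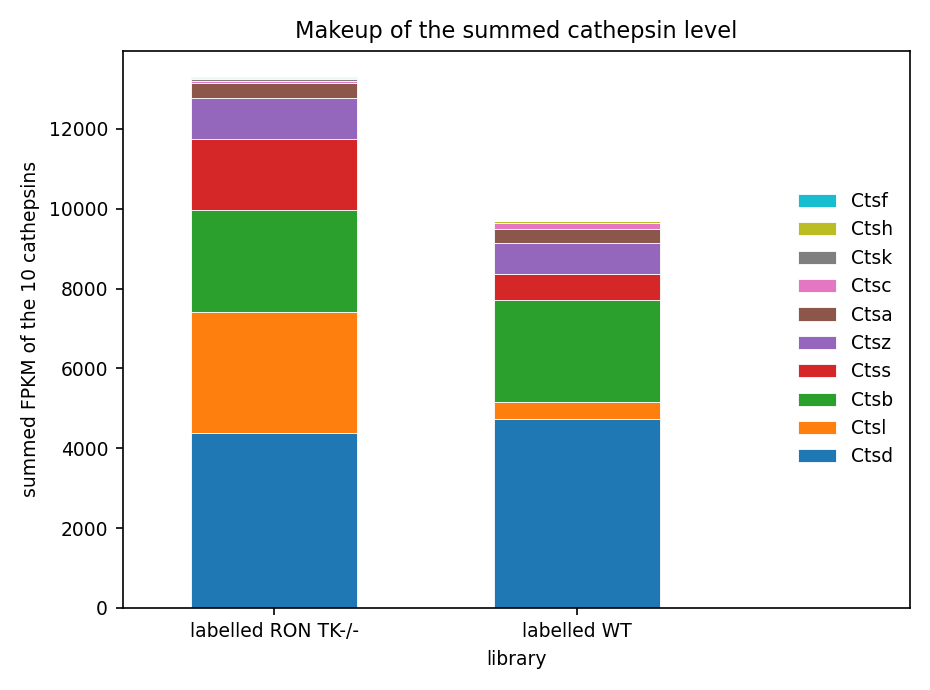
Summed FPKM of the 10 cathepsins in the library labelled RON TK-/- (left bar) and the library labelled WT (right bar), 1 library each, divided by gene. The Ctsd and Ctsb segments are of similar height in both bars, while the Ctsl segment makes up 22.9% of the left bar and 4.37% of the right one.

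Each member's ratio was taken as log2 of its FPKM + 1, with the library labelled RON TK-/- over the library labelled WT. Over all 11288 detected genes the median of this ratio was 0.57 above 0, so a gene at 0 lay below most others, and ratios relative to that median are given as well. Of the 10 members, all of them detected, 3 were higher by 2-fold or more, where 25.6% of detected genes were, and 1 was lower by 2-fold or more, where 8.71% were. Relative to the median, 2 were higher and 2 lower by that much, against 8.38% and 14.4% of detected genes. With 10 genes a single member moves such a count by 10 percentage points, and nothing particular to the family is read from them. The median ratio of the members was 0.03, or -0.63 under the scaling that sets the median of detected genes to 0. That is below the median of all detected genes, and 7 of the 10 members lay below it.

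**Figure D3:**
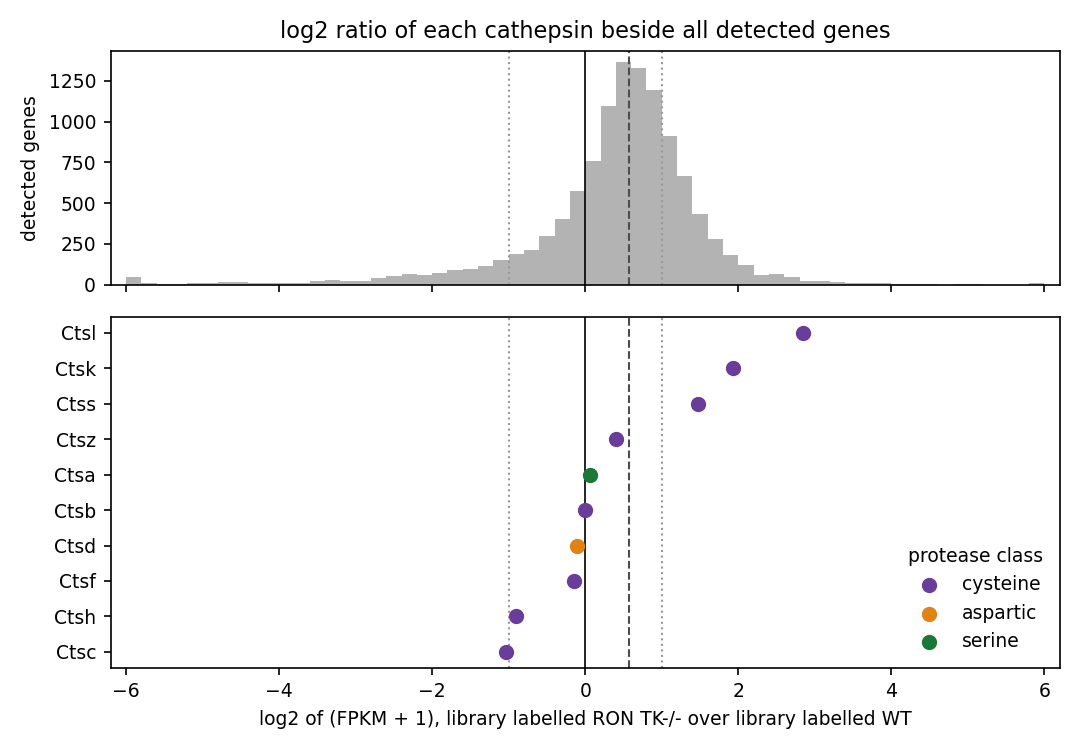
The upper panel shows how many detected genes had each log2 ratio of FPKM + 1, library labelled RON TK-/- over library labelled WT, with ratios beyond 6 in either direction placed in the end bins. The lower panel shows the 10 cathepsins on the same axis, coloured by class. The solid line marks 0, the dashed line the median of 0.57 and the dotted lines 2-fold. Ctsl, Ctsk and Ctss lie right of the dashed line and the other 7 left of it.

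Ctsl had the largest difference of the family. This endopeptidase digests proteins in lysosomes and, in the mouse thymic epithelium, the MHC class II invariant chain. It had 3043 FPKM in the library labelled RON TK-/-, against 424.1 FPKM in the library labelled WT, resting on about 402612 estimated reads in RON TK-/- and 49763 in WT. The log2 ratio was 2.84, or 2.27 relative to the median, and 116 of the 11288 detected genes (1.03%) had a higher one. By level Ctsl was gene number 11 of all genes in the library labelled RON TK-/- and number 159 in the library labelled WT. Within a library it was 1.19 times Ctsb in the library labelled RON TK-/- and 0.165 times Ctsb in the library labelled WT. It occupies positions 64363214 to 64370306 of chromosome 13 in mm10 and is listed with 1 transcript.

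Ctsk was the second by ratio but at a far lower level. It is the collagen-degrading cathepsin by which osteoclasts resorb bone. Ctsk had 53.1 FPKM in the library labelled RON TK-/-, against 13.2 FPKM in the library labelled WT, a log2 ratio of 1.93, or 1.37 relative to the median. Of detected genes, 463 (4.10%) had a higher ratio. Since osteoclasts share their precursors with macrophages, osteoclast markers were listed beside it. Of 11 such genes 8 were detected, 3 of them higher by 2-fold or more and 2 lower, where 25.6% and 8.71% of detected genes were. The list summed to 524.7 FPKM in the library labelled RON TK-/-, against 199.6 FPKM in the library labelled WT. Most of that sum was the proton pump subunit Atp6v0d2, with 376.1 FPKM in RON TK-/- and 28.2 FPKM in WT. The defining calcitonin receptor gene Calcr was listed at 0 in both, Ocstamp had 2.83 FPKM in RON TK-/- but was listed at 0 in WT, Itgb3, an integrin subunit, had 26.5 FPKM in RON TK-/- and 3.93 FPKM in WT, and Acp5, the tartrate-resistant acid phosphatase, had 85.9 FPKM in RON TK-/- and 72.7 FPKM in WT. The 2 lower ones were Mmp9, a matrix metalloproteinase with 14.2 FPKM in RON TK-/- and 58.8 FPKM in WT, and Car2, a carbonic anhydrase with 2.66 FPKM in RON TK-/- and 22.7 FPKM in WT. Fibroblasts can also express Ctsk. Of 8 fibroblast markers 6 were detected, 2 of them at least 2-fold higher and 0 lower, beside the same shares of detected genes. The list summed to 898.9 FPKM in the library labelled RON TK-/-, against 673.7 FPKM in the library labelled WT. The 2 higher ones were the collagen gene Col3a1, with 170.5 FPKM in RON TK-/- and 48.5 FPKM in WT, and the growth factor receptor gene Pdgfra, with 24.3 FPKM in RON TK-/- and 8.93 FPKM in WT. Another collagen gene, Col1a2, had 433.0 FPKM in RON TK-/- and 407.3 FPKM in WT, while Lum and Thy1 were under 1 FPKM in both. The part of either marker list in the Ctsk difference was not tested.

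Ctss was the remaining member at least 2-fold higher. It is the cathepsin that completes invariant chain removal in antigen-presenting cells and stays active at neutral pH. Ctss had 1780 FPKM in the library labelled RON TK-/-, against 641.1 FPKM in the library labelled WT, a log2 ratio of 1.47. Relative to the median the ratio was 0.91, under 2-fold. Its listed transcripts differ in length by 3 bases, and the shorter one made up 91.1% of the gene's FPKM in the library labelled RON TK-/-, against 90.4% in the library labelled WT. The difference was thus in the total and not in the split between them, although reads of 50 bases can hardly separate transcripts this similar. Ctsk and Ctss are neighbours on chromosome 3, at 95499210 to 95509387 and 95526786 to 95556405, in the same orientation with 17398 bases and no other listed gene between them.

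Ctsc and Ctsh had the lowest ratios of the family. Ctsc encodes dipeptidyl peptidase I, which removes dipeptides from the N-terminus and activates the granule serine proteases of neutrophils, mast cells and cytotoxic lymphocytes. It had 71.2 FPKM in the library labelled RON TK-/-, against 147.2 FPKM in the library labelled WT, a log2 ratio of -1.04, or -1.60 relative to the median. With a pseudocount of 5 in place of 1 its ratio was -0.998, just inside 2-fold. The 9 listed protease substrates of cathepsin C, such as neutrophil elastase (Elane) and granzyme B (Gzmb), were all under the detection level in both libraries, and summed to 0.171 FPKM in the library labelled RON TK-/-, against 0.588 FPKM in the library labelled WT. Ctsh, an aminopeptidase, had 24.9 FPKM in the library labelled RON TK-/-, against 47.4 FPKM in the library labelled WT. Its log2 ratio of -0.90 was inside 2-fold, and relative to the median it was -1.47. Both genes kept about the same proportion to each other, with Ctsc at 2.86 times Ctsh in the library labelled RON TK-/- and 3.11 times in the library labelled WT.

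The 5 other members differed by less than 1.5-fold. Ctsd, the main aspartic protease of lysosomes, was the most abundant cathepsin of both libraries. It ranked number 6 of all genes in the library labelled RON TK-/- and number 3 in the library labelled WT, with a log2 ratio of -0.11. Ctsb, which acts both as an endopeptidase and as a carboxydipeptidase, had 2555 FPKM in the library labelled RON TK-/-, against 2566 FPKM in the library labelled WT. Its log2 ratio was -0.01, and Ctsb was 0.584 times Ctsd in RON TK-/- and 0.542 times in WT. Ctsz, a carboxypeptidase also called cathepsin X, had 1021 FPKM in RON TK-/- and 771.2 FPKM in WT, a log2 ratio of 0.40 that turned to -0.26 under that scaling. Ctsf, the least abundant member, had 6.57 FPKM in the library labelled RON TK-/-, against 7.38 FPKM in the library labelled WT, with 862 estimated reads in RON TK-/- and 845 in WT. Relative to the median these genes were lower, by 0.16 for Ctsz, 0.57 for Ctsb, 0.68 for Ctsd and 0.71 for Ctsf on the log2 scale. Near-equal FPKM of Ctsb and Ctsd in the 2 libraries is thus a statement on that scale alone. In mm10 Ctsd lies on chromosome 7 from 142375916 to 142387870, Ctsb on chromosome 14 from 63122462 to 63145923, Ctsz on chromosome 2 from 174427494 to 174438992 and Ctsf on chromosome 19 from 4855129 to 4860912. Ctsc lies on chromosome 7 from 88278093 to 88310875 and Ctsh on chromosome 9 from 90054267 to 90076095.

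Ctsa, called protective protein because it stabilises lysosomal beta-galactosidase and neuraminidase in a complex, had a log2 ratio of 0.06, or -0.50 relative to the median. Its shorter transcript held 96.9% of the gene's FPKM in the library labelled RON TK-/-, against 97.6% in the library labelled WT. The partner genes named next differed by less than 1.5-fold. Glb1, the beta-galactosidase, had 65.4 FPKM in the library labelled RON TK-/-, against 60.6 FPKM in the library labelled WT, and Neu1, the neuraminidase, had 30.6 FPKM in RON TK-/- and 25.5 FPKM in WT. The sulfatase gene Galns, also reported in this complex, had 22.6 FPKM in RON TK-/- and 23.9 FPKM in WT. Ctsa lies on chromosome 2 from 164832872 to 164841032. Some members overlap genes of the opposite strand in the listed loci. Ctsa shares 725 bases with Neurl2 and 1515 with Pltp on chromosome 2, and Ctsb shares 774 bases with Fdft1 on chromosome 14. Pltp had 76.4 FPKM in the library labelled RON TK-/-, against 35.9 FPKM in the library labelled WT, and Fdft1 had 19.3 FPKM in RON TK-/- and 2.73 FPKM in WT. No source used here gives strand use, so reads in these overlaps cannot be assigned, although Fdft1 lay far below Ctsb.

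Promoter sequences of 8 members, all but Ctsb and Ctsh, were found in the RefSeq table (GRCm38.p6), in 9 windows of 300 bases from 250 before to 50 after the start site. They were searched on both strands for the E-box CACGTG, which is the core of the CLEAR element bound by TFEB-type factors of lysosomal genes, for TTC and GAA with 4 bases between them, the spacing that STAT6 binds, and for GAAA and GAAA with 2 bases between them, the pattern of interferon response elements. CACGTG was present in windows of 4 members, Ctsa, Ctsd, Ctsf and Ctsl, and in 7.15% of all 32851 promoter windows. The longer GTCACGTG, which contains that E-box, was found in Ctsa and Ctsd and in 2.25% of all windows. The STAT6-type pattern was found in none of the 9 windows and in 6.95% of all, and the interferon-type pattern in the Ctss window alone of the 9 and in 3.44% of all. The windows below are those of the most abundant member, whose ratio was near 0, and of the member that differed most. That of the member with the interferon-type match follows. They are written 5′ to 3′ with matches to CACGTG and to the interferon-type pattern in capitals. The longer GTCACGTG is not marked apart.
Ctsd, chr7:142387778-142388077, minus strand: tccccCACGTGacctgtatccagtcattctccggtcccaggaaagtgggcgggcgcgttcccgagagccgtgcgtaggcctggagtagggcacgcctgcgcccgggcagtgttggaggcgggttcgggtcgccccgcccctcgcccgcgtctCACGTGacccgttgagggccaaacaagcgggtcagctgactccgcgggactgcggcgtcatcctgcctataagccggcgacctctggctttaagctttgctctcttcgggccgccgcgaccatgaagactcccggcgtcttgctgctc
Ctsl, chr13:64370471-64370770, minus strand: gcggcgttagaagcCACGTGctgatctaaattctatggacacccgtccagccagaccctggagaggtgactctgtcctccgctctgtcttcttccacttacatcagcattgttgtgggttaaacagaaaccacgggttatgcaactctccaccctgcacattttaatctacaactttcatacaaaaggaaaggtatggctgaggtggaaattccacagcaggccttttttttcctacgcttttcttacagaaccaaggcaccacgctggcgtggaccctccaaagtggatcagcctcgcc
Ctss, chr3:95526536-95526835, plus strand: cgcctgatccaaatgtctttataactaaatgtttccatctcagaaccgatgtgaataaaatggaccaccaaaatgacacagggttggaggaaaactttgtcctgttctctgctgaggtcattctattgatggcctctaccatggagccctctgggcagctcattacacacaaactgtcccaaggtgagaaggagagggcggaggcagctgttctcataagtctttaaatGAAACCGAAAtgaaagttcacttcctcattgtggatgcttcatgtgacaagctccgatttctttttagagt
The Ctsd window holds CACGTG at 245 and 98 bases before the start site, the Ctsl window at 236 bases before it. The RefSeq start of Ctsl lies 214 bases upstream of the start in the deposited tables. Members with the E-box thus included Ctsl, which was more than 2-fold higher in the library labelled RON TK-/-, and Ctsa, Ctsd and Ctsf, which were not. Ctss, with the interferon-type match 21 bases before its start, had a log2 ratio of 1.47, or 0.91 relative to the median. The part of this match in the Ctss level was not tested. These matches describe letters in a window, not binding.

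Genes that regulate lysosomal transcription were then set beside the family, with lists of companion genes throughout. The positive list medians given from here on all turned negative under the scaling that sets the median of detected genes to 0, called the median scaling from here on. TFEB, TFE3, MITF and TFEC are the factors that bind CLEAR elements. Tfeb had 14.6 FPKM in the library labelled RON TK-/-, against 1.38 FPKM in the library labelled WT, a log2 ratio of 2.71, or 2.14 relative to the median. Of the others, Tfe3 had 23.8 FPKM in RON TK-/- and 13.9 FPKM in WT, a log2 ratio of 0.74. Tfec, at 65.2 FPKM in RON TK-/- and 51.8 FPKM in WT, had a ratio of 0.33, below the all-gene median, and Mitf, at 15.6 FPKM in RON TK-/- and 19.5 FPKM in WT, a ratio of -0.30. Flcn, Fnip2 and Rragd, which act in nutrient-dependent control of TFEB and TFE3, had 24.9, 27.2 and 11.9 FPKM in the library labelled RON TK-/-, against 7.82, 11.5 and 4.08 FPKM in the library labelled WT. Of 14 regulators 12 were detected, 5 past 2-fold upwards and 0 downwards, where 25.6% and 8.71% of detected genes were, and their median log2 ratio was 0.62. With a pseudocount of 5, 2 were higher, beside 983 of the 11288 detected genes. Relative to the all-gene median, Tfeb alone of these was more than 2-fold higher.

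Among the inhibitors of the cysteine class the abundant cystatins had similar levels in both libraries. Of 21 listed inhibitors 6 were detected, and 0 of them were at least 2-fold apart in FPKM + 1 in either direction. Of all detected genes 25.6% were higher and 8.71% lower by that much. The inhibitor count rested on the pseudocount and the scaling, since 2 were lower with a pseudocount of 0.1, after conversion to TPM or under the median scaling. Of all detected genes 1111, 1207 and 1564 were lower under those settings in turn. Cst3 (cystatin C, secreted) had 974.2 FPKM in the library labelled RON TK-/-, against 787.9 FPKM in the library labelled WT, and Cstb (cystatin B, cytosolic) had 667.6 FPKM in RON TK-/- and 665.6 FPKM in WT. Set against the cysteine cathepsin sum of the same library, these 2 inhibitors were at 0.192 in the library labelled RON TK-/- and 0.315 in the library labelled WT. Cst7, cystatin F, which inhibits cathepsin C in its target cells, had 17.4 FPKM in RON TK-/- and 9.81 FPKM in WT. Gm5483 and Ctla2a were low, at 0.282 and 0.999 FPKM in the library labelled RON TK-/-, against 1.48 and 2.45 FPKM in the library labelled WT. The stefin genes Stfa1, Stfa2 and Stfa3 were listed at 0 in both libraries.

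Partners and other enzymes of the lysosome mostly differed by less than 2-fold, as most detected genes did. Psap, the precursor of the saposins and a cathepsin D substrate, had a log2 ratio of 1.24, or 0.68 relative to the median. It had 4450 FPKM in the library labelled RON TK-/-, against 1880 FPKM in the library labelled WT. It was 1.02 times Ctsd in the library labelled RON TK-/- and 0.397 times Ctsd in the library labelled WT. Grn, the progranulin gene, had 705.0 FPKM in RON TK-/- and 671.0 FPKM in WT. Of 7 other lysosomal peptidases 1 was past 2-fold upwards and 0 downwards, where 25.6% and 8.71% of detected genes were, and the median ratio was 0.34. The higher count was 0 with a pseudocount of 5, in TPM or under the median scaling, beside 983, 3431 and 950 of all detected genes. That 1 was the dipeptidyl peptidase Dpp7, with 102.4 FPKM in the library labelled RON TK-/-, against 49.1 FPKM in the library labelled WT, and Lgmn, the legumain that processes several cathepsins, had 464.2 FPKM in RON TK-/- and 275.4 FPKM in WT. The tripeptidyl peptidase Tpp1 had 179.8 FPKM in RON TK-/- and 114.1 FPKM in WT, and the carboxypeptidase Scpep1 had 247.3 FPKM in RON TK-/- and 195.6 FPKM in WT. Of 24 lysosomal hydrolases other than peptidases 2 were higher, Sgsh and Galc, and 0 lower, beside the same shares of detected genes. Under the median scaling 0 hydrolases were higher and 2 lower, beside 950 and 1564 of all detected genes. Their median ratio was 0.23, and 20 of the 24 lay below the all-gene median. Sgsh, a sulfatase of heparan sulfate breakdown, had 18.5 FPKM in RON TK-/- and 6.23 FPKM in WT, and Galc, the galactosylceramidase, had 42.6 FPKM in RON TK-/- and 16.8 FPKM in WT. The arylsulfatase genes were on either side of 0, Arsa with 19.7 FPKM in RON TK-/- and 9.86 FPKM in WT, and Arsb with 17.6 FPKM in RON TK-/- and 29.2 FPKM in WT.

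Of 16 genes of delivery to lysosomes 2 were at least 2-fold higher, 1 at least 2-fold lower, and the median ratio was 0.32. These counts depended on the setting, with 0 higher and 2 lower under the median scaling, and 0 in either direction with a pseudocount of 5. Of the 11288 detected genes, 950 were higher and 1564 lower under the median scaling, and 983 and 691 with a pseudocount of 5. Gga2 and Gga1, adaptors of the mannose 6-phosphate receptors at the Golgi, had 18.1 and 28.0 FPKM in the library labelled RON TK-/-, against 6.98 and 11.6 FPKM in the library labelled WT. Gga3, of the same family, had 10.3 FPKM in RON TK-/- and 5.31 FPKM in WT. Sorl1, a sorting receptor, was low in both, with 0.369 FPKM in RON TK-/- and 3.17 FPKM in WT. The receptors themselves, M6pr and Igf2r, had 125.1 and 37.2 FPKM in the library labelled RON TK-/-, against 172.7 and 40.2 FPKM in the library labelled WT.

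**Figure D4:**
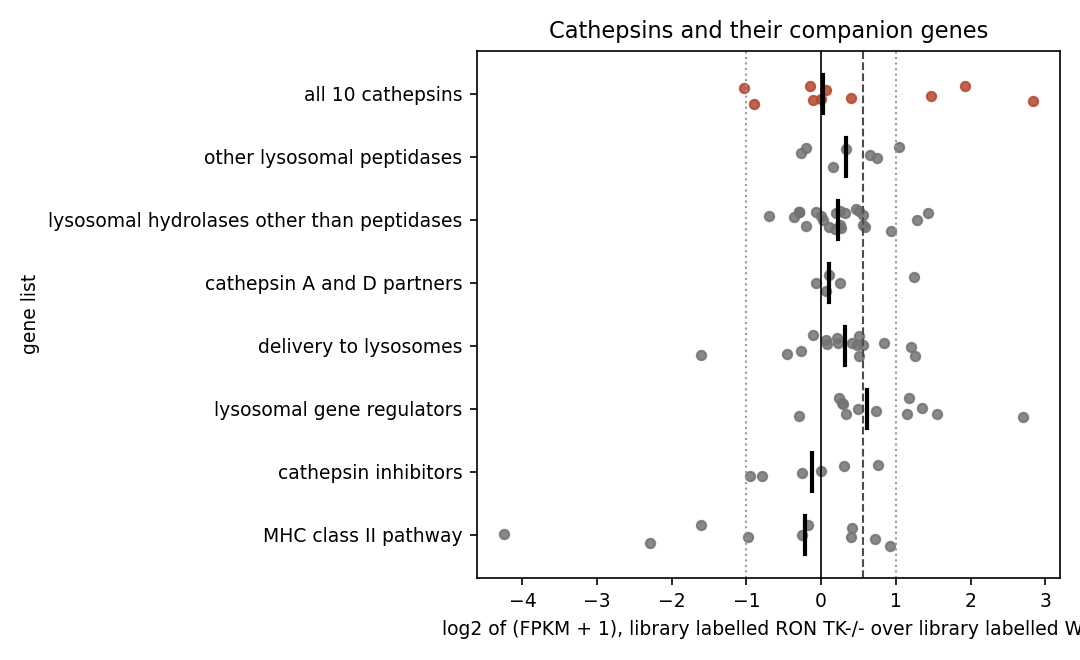
log2 ratio of FPKM + 1, library labelled RON TK-/- over library labelled WT, for each detected gene of 8 lists, 1 point per gene with random vertical placement. Thick bars are list medians, the solid line is 0, the dashed line the median of all detected genes (0.57) and the dotted lines 2-fold. The cathepsins, with a median of 0.03 that is -0.63 after scaling the median of detected genes to 0, spread over both dotted lines, while the lysosomal hydrolases lie mostly between them.

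The MHC class II pathway, in which cathepsins S, L and F cleave the invariant chain, had ratios on either side of 0, mostly below the all-gene median. Of its 10 detected genes 4 had a ratio above 0 and 6 below it, where 23.6% of detected genes were below 0. Relative to the all-gene median, 2 of the 10 lay above and 8 below. The list summed to 263.7 FPKM in the library labelled RON TK-/-, against 225.6 FPKM in the library labelled WT, with Ifi30 the largest part in both. Ifi30, the lysosomal thiol reductase, had 166.9 FPKM in RON TK-/- and 87.7 FPKM in WT, a log2 ratio of 0.92. H2-DMa, H2-DMb2 and H2-DMb1, which encode the peptide exchange factor H2-DM, had log2 ratios of 0.72, 0.42 and 0.39. The invariant chain gene Cd74 had 65.2 FPKM in the library labelled RON TK-/-, against 78.1 FPKM in the library labelled WT, and Ciita, the regulator of the class II genes, had 0.339 FPKM in RON TK-/- and 24.5 FPKM in WT. The class II chains H2-Ab1 and H2-Eb1 were lower, with 1.41 and 0.161 FPKM in the library labelled RON TK-/- against 10.7 and 2.54 FPKM in the library labelled WT. By 2-fold, 0 genes of the list were higher and 3 lower (Ciita, H2-Ab1 and H2-Eb1), where 25.6% and 8.71% of detected genes were. The median ratio of the list was -0.21, which turned to 0.39 over its genes with at least 5 FPKM. H2-Oa was low, with 0.0714 FPKM in RON TK-/- and 1.12 FPKM in WT. Ctss was higher in the library with the lower Ciita level, and a link between them was not tested.

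Most cathepsins outside the 10 were barely listed. Of 13 such genes 2 were detected, and 9 were listed at 0 in both libraries. Ctso, another papain-family cathepsin, had a log2 ratio of 1.05, or 0.48 relative to the median. It had 28.6 FPKM in the library labelled RON TK-/-, against 13.3 FPKM in the library labelled WT. The aspartic Ctse had 2.79 FPKM in RON TK-/- and 3.72 FPKM in WT. On chromosome 13, the chromosome of Ctsl, 9 of these genes lie between 60798250 and 61570127, mostly known from rodent placenta, and none reached 1 FPKM in either library. Likeness was taken as the distance over log2 of FPKM + 1 in 2 libraries. The genes nearest to Ctsl were Ccl6 at 0.29, S100a4 at 1.10 and Lgals1 at 1.19. Those nearest to Ctss were Lgals1 at 0.22, Fabp5 at 0.40 and S100a4 at 0.54. Those nearest to Ctsk were Atic, Mpp6 and Tceal8, at 0.035, 0.037 and 0.042. Ccl6, a chemokine, had 2938 FPKM in the library labelled RON TK-/-, against 346.9 FPKM in the library labelled WT. A likeness over 2 libraries only ranks genes by distance, and S100a4 and Lgals1 did not lie close to Ctsl.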

How the data were processed

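RNA was measured in 2 libraries, 1 labelled RON TK-/- and 1 labelled WT. Per the labels' protocols, RNA was extracted with TRIZOL and sequenced as single reads of 50 bases from TruSeq libraries. The authors deposited FPKM values per RefSeq transcript in 31580 rows per library, with column names as Cufflinks writes them, per the file headers. A coverage column, deposited beside them, holds the mean read depth per base. Build mm10 and the program DESeq appear in the submitters' processing notes with no role. No source used here names the aligner.

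Rows of a symbol were summed. Ratios are log2 of (FPKM + 1), which understates differences of low genes, and 2-fold was the threshold for counting. Estimated reads are coverage times transcript length over read length, and are not counts, so no interval is given and no count model was used. Locus starts were 1 below the RefSeq start for 12698 of 21792 genes compared and are printed with 1 added. Python 3.11.15, pandas 2.3.3 and numpy 2.4.6 were used. The calls were run on simulated data, a copy of the WT library with 4-fold changes planted. That simulation held no variation between cultures and no shift of the median. It does not bear on calls near 2-fold. Text names all 10 members, up to 4 detected genes of each list with the largest absolute ratio, and the 3 nearest genes of each of the 3 members with the largest ratio. Genes beyond this rule were named for their role or after their values were seen. The members and lists were chosen with earlier results of these data known. Alternatives were other pseudocounts, filters, scalings, thresholds and the most abundant transcript only.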

Additional observations from a re-analysis of the deposited data

How the results depend on the processing

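The ratios of Ctsl and Ctsk stayed more than 2-fold higher in the library labelled RON TK-/- under the 8 alternatives that give member ratios. A 4-fold threshold kept 1 member higher and 0 lower. Of 80 member ratios under 8 alternatives, 75 kept their direction and their side of 2-fold. Part of this was fixed in advance, since the filter settings cannot alter a member ratio. Using the most abundant transcript can alter only Ctsa and Ctss, the members listed with more than 1. The scaling mattered most. Multiplying the RON TK-/- values by 0.632, so that the median ratio of detected genes is 0, gave log2 ratios of -0.59 for Ctsa, -0.26 for Ctsz, 0.81 for Ctss and -1.53 for Ctsh, and log2 folds of -0.60 for the serine class and -0.21 for the sum of all 10. The member median was then -0.63, with 2 members lower, and 950 and 1564 of all detected genes were higher and lower, in place of 2890 and 983. The list medians then were -0.18 for other cathepsins, -0.32 for other peptidases, -0.31 for delivery, -0.54 for the partners of cathepsins A and D, -0.42 for hydrolases and -0.0064 for regulators. Rescaling to TPM gave a member median of -0.036. The log2 fold of cysteine over aspartic cathepsins was 1.003 as reported, 0.995 with the most abundant transcript only and 0.9998 from estimated reads, an alternative added after seeing the data. A pseudocount of 5 left 0 members lower, and a 1.5-fold threshold gave 2, beside 691 and 1408 of all detected genes. With a 5 FPKM minimum the inhibitor and class II medians were 0.16 and 0.39. Of all detected genes, 983 were higher with a pseudocount of 5, 5519 at 1.5-fold, and 419 higher and 463 lower at 4-fold. The cause of these shifts was not tested, beyond what each setting does by construction. No paired analysis was possible because each group holds 1 library and no test was run. The depth behind every member is 845 estimated reads or more. The values remain limited by the missing replicates, by the scaling and by the activation difference between the libraries.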
